A study of Drosophila melanogaster with 37 samples.

Results

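CLAMP peaks that were still called after CLAMP RNAi were set beside GAF peaks of the same cells. The members are all regions that the CLAMP lists of replicates 1 and 2 and the GAF lists of replicates 1, 2 and 3 from CLAMP RNAi hold on chromosomes X and 4 and on both arms of chromosomes 2 and 3. They number 12126 of the 260791 regions that the 25 peak lists of the series hold on these arms. The CLAMP lists held 749 and 430 peaks and the GAF lists 3320, 3059 and 4568.

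The study mapped CLAMP, GAF and the MSL subunit MSL3 by ChIP-seq in S2 cells, a male cell line of Drosophila melanogaster, to place the factors relative to each other along the genome. All cells had received dsRNA at 4.5 ug/mL, against CLAMP in the libraries described here and against GFP or GAF (trl) in the libraries set beside them. Precipitation used a rabbit anti-CLAMP, a rabbit anti-GAF or a goat anti-MSL3 antibody. The labels do not say whether replicates came from separate cultures, so p values measure the spread between these libraries, which may be technical. The cells came from 1 line, the amount of CLAMP protein left was not measured in the data used here, and the depth of each library is unknown because the lists hold no read counts.

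CLAMP recognises GA-rich DNA through an array of zinc fingers, and the MSL dosage compensation complex needs it to reach the male X chromosome. GAF, the GAGA factor encoded by Trl, has a single zinc finger and binds shorter GA-rich elements, mostly at promoters, where it is known for opening chromatin. Because both proteins read GA-rich DNA, a site may be called with either antibody, and the position of the summit within a peak shows where each signal was highest.

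After CLAMP RNAi most of the remaining CLAMP peaks lay at GAF sites, while few GAF peaks lay at CLAMP sites, in lists of unequal length. With every list limited to its 430 strongest peaks and sites made from these alone, 13.4% of CLAMP peaks lay at GAF sites. Of GAF peaks, 17.5% then lay at CLAMP sites, so both statements hold for the whole lists. Of the same 430 CLAMP peaks, 67.9% (replicate 1) and 61.6% (replicate 2, its whole list) lay at GAF sites of the whole GAF lists. A GAF site is a merged region called in at least 2 of the 3 GAF lists, and a CLAMP site is a region called in either CLAMP list. At an overlap of 1 bp, 490 of 749 CLAMP peaks of replicate 1 were at GAF sites (65.4%, 95% Clopper-Pearson interval 61.9 to 68.8). In replicate 2 these were 265 of 430 (61.6%, 56.8 to 66.2), for a mean of 63.5% ± 2.68 (SD, n = 2). The GAF sites covered 1.70% of the 6 arms. As a background, 11.9% of all 20104 CLAMP regions merged over the 7 CLAMP lists of the series were at these GAF sites. The lists of GFP and GAF RNAi in this pool are longer than those of CLAMP RNAi. Among the 430 strongest CLAMP peaks of GFP RNAi replicates 1, 2 and 4, 74.0%, 63.0% and 64.9% were at these GAF sites. Intervals cover counting error only.

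The converse share was small in all 3 GAF libraries, and the number of CLAMP sites, 780, limits it because each GAF list is longer. CLAMP sites held 493 of 3320 GAF peaks in replicate 1 (14.8%), 472 of 3059 in replicate 2 (15.4%) and 498 of 4568 in replicate 3 (10.9%), a mean of 13.7% ± 2.46 (SD, n = 3). Of all 40236 GAF regions merged over the 8 GAF lists of the series, 1.38% were at these CLAMP sites. The CLAMP sites covered 0.182% of the arms. Without CLAMP replicate 1, the longer list, the mean share of GAF peaks was 7.31%.

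CLAMP sites called in both libraries and those called in 1 lay at GAF sites in similar shares. Of CLAMP replicate 2, 398 of 430 peaks overlapped a peak of replicate 1 (92.6%), and of replicate 1, 394 of 749 overlapped replicate 2 (52.6%). The lists gave 393 CLAMP sites called in both libraries and 387 called in 1. GAF sites made up 249 of the 393 (63.4%, 58.4 to 68.1) and 255 of the 387 (65.9%, 60.9 to 70.6), and the intervals overlap. Of GAF replicate 1, 88.1% and 97.1% of peaks overlapped replicates 2 and 3, and of replicate 2, 96.0% and 98.8% overlapped replicates 1 and 3. Of GAF replicate 3, the longest list, 63.6% and 59.4% overlapped replicates 1 and 2.

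CLAMP calls reached a low q less often than GAF calls, above all in replicate 2. A q under 0.05 was reached by 413 of 749 peaks in CLAMP replicate 1 (55.1%) and by 76 of 430 in replicate 2 (17.7%), against 83.5% to 90.4% of the peaks in the 3 GAF lists. With all 5 lists limited to such peaks, 269 of 413 CLAMP peaks of replicate 1 were at GAF sites (65.1%, 60.3 to 69.7) and 32 of 76 of replicate 2 (42.1%, 30.9 to 54.0). The high share at GAF sites at that limit therefore rests on replicate 1, and the CLAMP sites called in both libraries that are GAF sites dropped from 249 to 31.

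CLAMP lists were shorter than GAF lists by a factor of 6.33, with geometric means of 567.5 and 3593 peaks. On the log2 scale the mean was 9.15 ± 0.57 (SD, n = 2) against 11.81 ± 0.31 (SD, n = 3), a difference of −2.66. The groups did not overlap. The exact two-sided permutation p was 0.2, the smallest possible for 2 against 3 libraries, so no comparison of these groups could pass 0.05. With peaks of q under 0.05 the difference was −4.12.

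The CLAMP lists had a higher share on X than the GAF lists. X carried 178 of 749 peaks in CLAMP replicate 1 (23.8%) and 111 of 430 in replicate 2 (25.8%). In GAF replicates 1, 2 and 3 it carried 690 (20.8%), 636 (20.8%) and 753 (16.5%). X makes up 18.6% of the 6 arms, taken as the span up to the highest region end in the lists. Both CLAMP libraries lay above all 3 GAF libraries, and the means were 24.8% ± 1.45 (SD, n = 2) and 19.4% ± 2.48 (SD, n = 3). The difference of 5.44 points had an exact permutation p of 0.2 (adjusted over the 6 arms 0.6). In lists limited to the 430 strongest peaks each, X carried 25.1% and 25.8% of the CLAMP peaks and 21.9%, 27.4% and 21.9% of the GAF peaks. The groups then overlapped, with a difference of 1.74 points (exact permutation p 0.6).

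The remaining arms differed little apart from 3L. CLAMP had 16.7% and 13.3% of its peaks on 3L, and GAF had 19.9%, 19.8% and 19.3%, so CLAMP was lower by 4.72 points in the mean without overlap of the groups (exact permutation p 0.2, adjusted over 6 arms 0.6). On 2L GAF replicate 3 stood apart from the other GAF lists with 22.2% against 16.2% in both. Chromosome 4 carried 4 and 6 CLAMP peaks and 11, 9 and 54 GAF peaks. On X and on autosomes, 62.9% and 66.2% of CLAMP peaks of replicate 1 lay at GAF sites, and 63.1% and 61.1% of replicate 2. The difference had opposite signs in the libraries, with a mean of −0.67 points ± 3.69 (SD, n = 2). With peaks of q under 0.05 it was 23.8 points ± 29.5 (SD, n = 2).

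**Figure D1:**
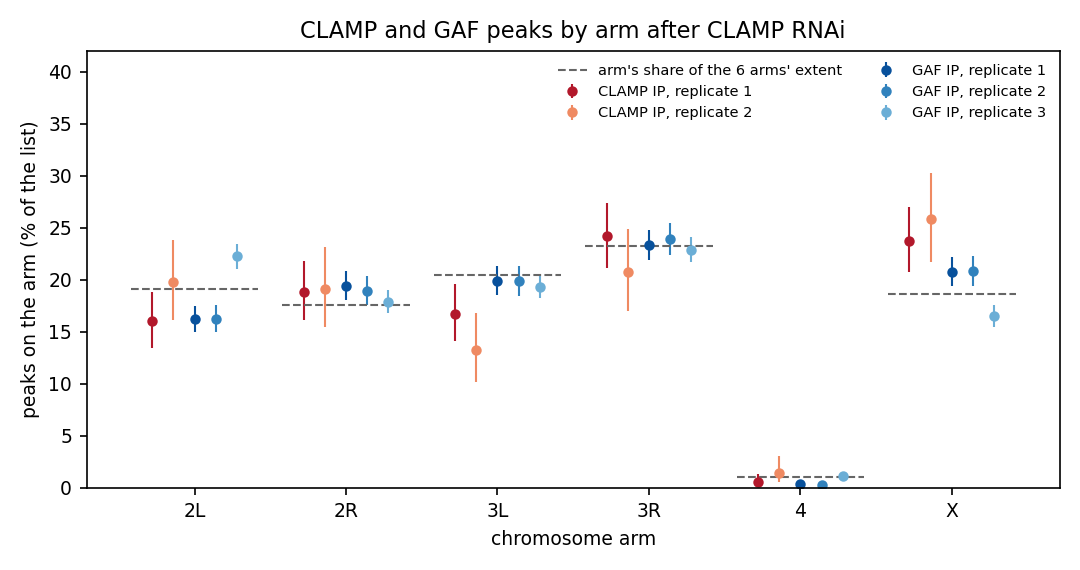
Percentage of each list's peaks on each chromosome arm after CLAMP RNAi, for 2 CLAMP and 3 GAF libraries. Bars are 95% Clopper-Pearson intervals and dashed lines give the arm's share of the 6 arms. On X both CLAMP libraries (23.8% and 25.8%) lie above the 3 GAF libraries (16.5% to 20.8%), and on 3L they lie below.

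Strength within a list was read from the rank of fold enrichment, the authors' value per peak, which is not comparable between lists. A percentile of 100 is the top of a list. In CLAMP replicate 1, peaks at GAF sites had a mean percentile of 49.5 and the others 50.9. In CLAMP replicate 2 these were 44.8 and 58.3, so the CLAMP peaks away from GAF ranked higher there. In the GAF lists the peaks at CLAMP sites ranked higher, with 62.0 against 47.9 in replicate 1, 52.0 against 49.6 in replicate 2 and 70.5 against 47.5 in replicate 3. The contrast of shared minus other peaks averaged −7.45 ± 8.52 for CLAMP (SD, n = 2) and 13.2 ± 10.3 for GAF (SD, n = 3), without overlap, and differed by −20.6 points (exact permutation p 0.2). With −log10 q limited to 1.3 or more this difference was −9.38 points (exact permutation p 0.4). Its sign turned in lists of 430 peaks each (3.16 points, exact permutation p 0.6).

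By quintile of fold, the share of CLAMP peaks at GAF sites stayed between 62.0% and 68.0% in replicate 1. In replicate 2 it went from 46.5% in the highest quintile (40 of 86 peaks) to 77.9% in the lowest (67 of 86). In GAF replicate 3 the share of GAF peaks at CLAMP sites went the other way, from 22.5% in the highest to 1.53% in the lowest quintile, and in GAF replicate 1 from 25% to 6.78%. GAF replicate 2 showed a smaller step, 17.5% to 14.6%. CLAMP peaks at GAF sites thus came from every quintile of both CLAMP lists, while in GAF replicates 1 and 3 weak GAF peaks seldom had a CLAMP peak.

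**Figure D2:**
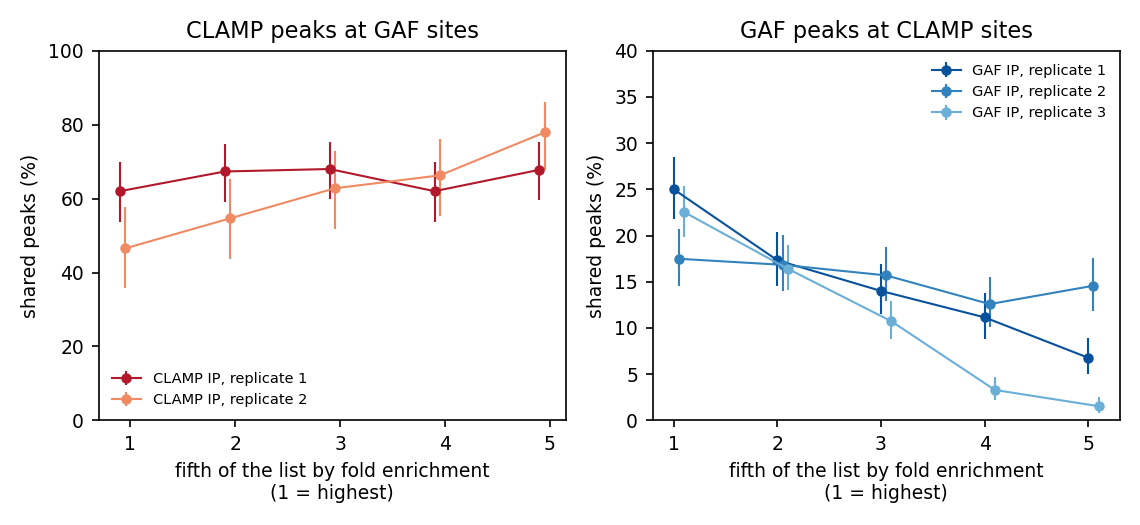
Share of peaks at a site of the other factor, by quintile of fold enrichment within each list (1 is the highest), for CLAMP peaks (left) and GAF peaks (right). Bars are 95% Clopper-Pearson intervals. CLAMP replicate 1 stays at 62.0% to 68.0%, CLAMP replicate 2 rises from 46.5% to 77.9% towards weak peaks, and GAF replicates 1 and 3 fall towards weak peaks.

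In CLAMP replicate 1 most of the 430 strongest peaks overlapped GAF peaks, and fewer overlapped the 430 strongest GAF peaks. By fold, 62 of the 100 highest peaks of replicate 1 and 45 of the 100 highest of replicate 2 lay at GAF sites. CLAMP replicate 2 holds 430 peaks in all, so its whole list was set beside the 430 strongest peaks by q of each other list. Of these CLAMP peaks, 59.8% to 70% overlapped a peak of a whole GAF list over the 6 pairs. Against the 430 strongest GAF peaks, drawn from lists of 3320, 3059 and 4568, the shares were lower. There, 78, 43 and 68 of CLAMP replicate 1 overlapped one of the 430 strongest of GAF replicates 1, 2 and 3 (18.1%, 10% and 15.8%). For CLAMP replicate 2 these were 54, 56 and 61 (12.6%, 13.0% and 14.2%). Within a factor the overlap was larger, 73.7% of CLAMP replicate 1 with replicate 2 and 40.7% to 57.9% between GAF libraries. Of all CLAMP peaks that overlapped a GAF peak, 10.2% to 20.4% had a partner at fold percentile 90 or above, over the 6 pairs. Across overlapping peaks the ranks of fold were weakly related. Spearman's rho was 0.12, 0.02 and 0.06 for CLAMP replicate 1 with GAF replicates 1, 2 and 3 (489, 462 and 509 pairs of peaks). For CLAMP replicate 2 it was −0.01, 0.25 and 0.01 (262, 257 and 280 pairs). These are descriptions over peaks that share their 2 libraries.

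GAF peaks were wider than CLAMP peaks, in lists that also differed in signal. The narrowest peaks had 148 and 172 bp in the CLAMP lists and 159, 177 and 209 bp in the GAF lists. The highest −log10 q was 19.8 and 2.93 for CLAMP and 36.7, 11.4 and 217 for GAF. Whether width follows these differences was not tested. Median widths were 244 and 257 bp in the CLAMP lists and 346, 360 and 423 bp in the GAF lists, without overlap. The means were 250.5 ± 9.19 bp (SD, n = 2) and 376.3 ± 41.0 bp (SD, n = 3), a difference of −125.8 bp (exact permutation p 0.2). Among the 430 strongest peaks of each list the medians were 285.5 and 257 bp for CLAMP and 567.5, 514.5 and 928 bp for GAF, a difference of −398.8 bp. Within the GAF lists, peaks at CLAMP sites had median widths of 503, 469.5 and 760 bp and the other peaks 327, 344 and 397 bp. Within the CLAMP lists the shared and other peaks had similar medians, 248.5 and 233 bp in replicate 1 and 256 and 259 bp in replicate 2.

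Merging the 5 lists gave 4926 sites, of which 234 (4.75%) were called in both CLAMP lists and all 3 GAF lists. Another 127 were called in both CLAMP lists and no GAF list, and 2163 in all 3 GAF lists and no CLAMP list. At the 234 sites, taking each library's peak of highest fold, median widths were 301 and 261.5 bp for CLAMP and 516, 502 and 792.5 bp for GAF. The mean GAF peak was the wider one at 219 of the 234 (93.6%), with a median ratio of 2.09. The CLAMP summit lay inside the GAF peak at 87.2% to 99.1% of these sites over the 6 pairs of libraries. These sites were chosen by overlap and the GAF peaks there are wider, so a high share was partly set in advance.

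**Figure D3:**
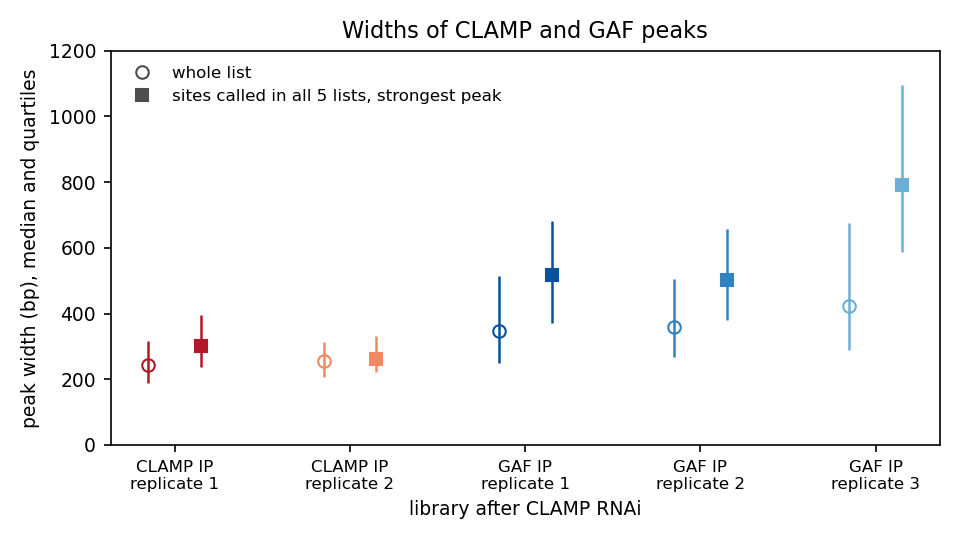
Median peak width with quartiles in bp for each of the 5 libraries, over whole lists (open circles) and at the 234 sites called in all 5 lists (squares, peak of highest fold). Medians are 244 and 257 bp in the CLAMP lists and 346 to 423 bp in the GAF lists, and the gap is larger at the 234 sites.

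At the same 234 sites, CLAMP and GAF summits stood apart by more than summits of 1 factor did between libraries. The median distance between the CLAMP libraries was 11 bp, and between GAF libraries it was 11, 15 and 15 bp. Between CLAMP replicate 1 and GAF replicates 1, 2 and 3 it was 44, 54 and 55.5 bp, and for CLAMP replicate 2 it was 45, 51 and 52.5 bp. All 6 medians between factors exceeded all 4 within a factor. These pairs share libraries and were given no test. Summits within 50 bp of each other made up 93.2% of sites between CLAMP libraries, 85.0% to 88.0% between GAF libraries and 45.7% to 55.1% between factors. Summits over 200 bp apart made up 2.56%, 7.26% to 8.97% and 17.9% to 23.5%.

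The separation was also present at simple sites. At the 179 sites with 1 peak in each list, medians between factors were 39 to 50 bp, against 11 bp for CLAMP and 10, 14 and 13 bp for GAF. With the nearest GAF summit taken at every CLAMP peak on a GAF site, the 6 medians were 35 to 51 bp, with a mean of 41.5 bp ± 6.47 (SD over 6 pairs). At 152 of the 234 sites (65.0%) both CLAMP summits lay on the same side of all 3 GAF summits. The gap between mean CLAMP and mean GAF positions had a median of 52.6 bp at the 64 sites on X and 54.7 bp at the 170 on autosomes. It exceeded 200 bp at 9 of the 64 (14.1%) and 43 of the 170 (25.3%).

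**Figure D4:**
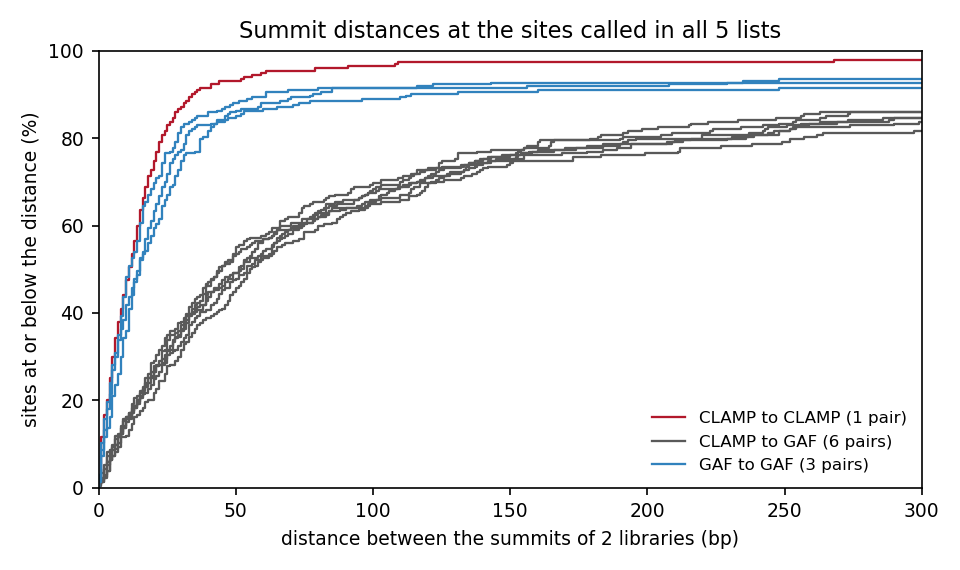
Cumulative percentage of the 234 sites called in all 5 lists against the distance in bp between the summits of 2 libraries, for 1 CLAMP pair (red), 3 GAF pairs (blue) and 6 pairs of CLAMP with GAF (grey). Within a factor 85.0% to 93.2% of sites are within 50 bp, and between factors 45.7% to 55.1%.

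Summits after CLAMP RNAi lay closer to those of the same factor than to those of the other factor in control cells (GFP RNAi). The remaining CLAMP summits had median distances of 12 to 15 bp from the summits of the 3 control CLAMP libraries at these sites, with 86.3% to 91.5% within 50 bp. Their median distances from control GAF summits were 60 to 83 bp. GAF summits after CLAMP RNAi were 13 to 27 bp from control GAF summits, with 70.9% to 81.0% within 50 bp, and 43 to 56 bp from control CLAMP summits. All 6 medians of remaining CLAMP with control CLAMP lay below all 6 with control GAF. Control libraries called 233 or 234 of the 234 sites with the CLAMP antibody and 223, 205 and 169 with the GAF antibody.

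The 5 best-ranked shared sites had gaps of 13.7 to 89.3 bp between mean CLAMP and mean GAF summits. Coordinates are 1-based on dm3, and no genes are given because no annotation of that build was used here. The site first by mean percentile, X 8651759 to 8652268, had folds of 6.84 and 5.94 with CLAMP and 10.8, 10.02 and 11.6 with GAF. Its CLAMP summits were at 8651952 and 8651951 and its GAF summits at 8652001, 8652011 and 8652000, a gap of 52.5 bp between means. At the next, 2L 4371612 to 4372252, CLAMP summits at 4371864 and 4371860 stood 44.3 bp from the mean of the GAF summits at 4371894, 4371905 and 4371920.

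Summits were close together at the shared site 3L 7427896 to 7428757, where the gap was 13.7 bp. Its CLAMP summits, at 7428425 and 7428469, differed by 44 bp. They lay on both sides of the summits of GAF replicates 1 and 3, at 7428437 and 7428442. Both had higher coordinates than the summit of GAF replicate 2, at 7428421. The gap was widest of the 10 best-ranked at X 9587620 to 9588411, 89.3 bp, with CLAMP summits at 9588046 and 9588034 and GAF summits at 9587936, 9587981 and 9587935. At 3L 7859933 to 7860969 it was 71.2 bp. Ranks were uneven, since X 9587620 to 9588411 was the 4th peak of CLAMP replicate 2 and the 123rd of replicate 1. Over the 10 best-ranked shared sites, 6 were on X, against 27.4% of the 234, and gaps ranged from 9.33 to 89.3 bp. All 10 were called in the 3 control CLAMP lists.

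CLAMP sites with no GAF peak were led by 3L 18611167 to 18611526, the 1st peak of CLAMP replicate 1 (fold 11.2) and the 2nd of replicate 2 (fold 6.51), with summits 18 bp apart. X 16971820 to 16972152 followed with folds of 9.43 and 6.32, then 3R 8251566 to 8252159 with 9.60 and 5.86. Next were 2L 18936088 to 18936434 with 8.66 and 6.31, and 2L 20770358 to 20770780 with 9.77 and 5.24. Of the 10 best-ranked, 2 were on X, near the 24.4% of the 127. All 10 were called in the 3 control CLAMP lists, and CLAMP summits differed between libraries by at most 30 bp.

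GAF sites with no CLAMP peak were led by X sites. X 18206483 to 18207101 had folds of 14.8, 10.4 and 12.4 in GAF replicates 1, 2 and 3, and X 18298433 to 18299039 had 14.8, 10.2 and 12.1. The next 3 were X 1128840 to 1129800, X 10440619 to 10441212 and X 5311910 to 5312999, with folds of 9.90 to 14.0. Of the 10 best-ranked, 9 were on X. Control cells had a CLAMP peak in all 3 lists at the first and the fifth of these sites, in 2 lists at the second and the fourth, and in 1 list at the third. Over the whole class of 2163 sites 20.5% were on X, so the concentration on X was at the top of the ranking. It was not particular to this class. Among the 100 peaks of highest fold in GAF replicates 1, 2 and 3, with or without CLAMP, 37, 42 and 43 were on X.

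Sites called in both CLAMP lists were nearly all CLAMP sites of control cells, and those called in 1 list somewhat less often. Control CLAMP replicates 1, 2 and 4 called 100%, 99.6% and 100% of the 234 shared sites and 100%, 99.2% and 97.6% of the 127 sites without GAF. Of the sites called in 1 CLAMP list, they called 90.8%, 89.2% and 90.8% of the 120 with no GAF peak and 97.7%, 88.6% and 96.4% of the 220 in all 3 GAF lists. Over all 4926 sites these libraries called 47.7%, 29.2% and 39.9%. Of the 2163 GAF sites with no remaining CLAMP peak, they called 53.0%, 27.5% and 45.7%.

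The 127 sites without GAF also had few GAF calls in other libraries. Control GAF replicates 1, 2 and 3 called 15.0%, 3.15% and 1.57% of them, with lists that covered 8.56%, 1.06% and 0.895% of the arms. The same lists called 95.3%, 87.6% and 72.2% of the 234 shared sites, and 63.9%, 56.1% and 48.2% of all 4926 sites. The 4926 include 1633 sites called in 1 GAF list and no CLAMP list. Of the 2163 sites in all 3 GAF lists with no CLAMP peak, the control GAF lists called 94.4%, 92.7% and 85.1%. After GAF RNAi, GAF replicates 1 and 2 held 3.15% and 6.30% of the 127 and 91.5% and 80.8% of the 234, against 59.8% and 44.3% of all 4926. Of the 2163 they held 88.9% and 70.0%. CLAMP replicates 1 and 2 of GAF RNAi held 100% and 94.5% of the 127 and 100% and 97.9% of the 234, against 48.5% and 48.3% of all.

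**Figure D5:**
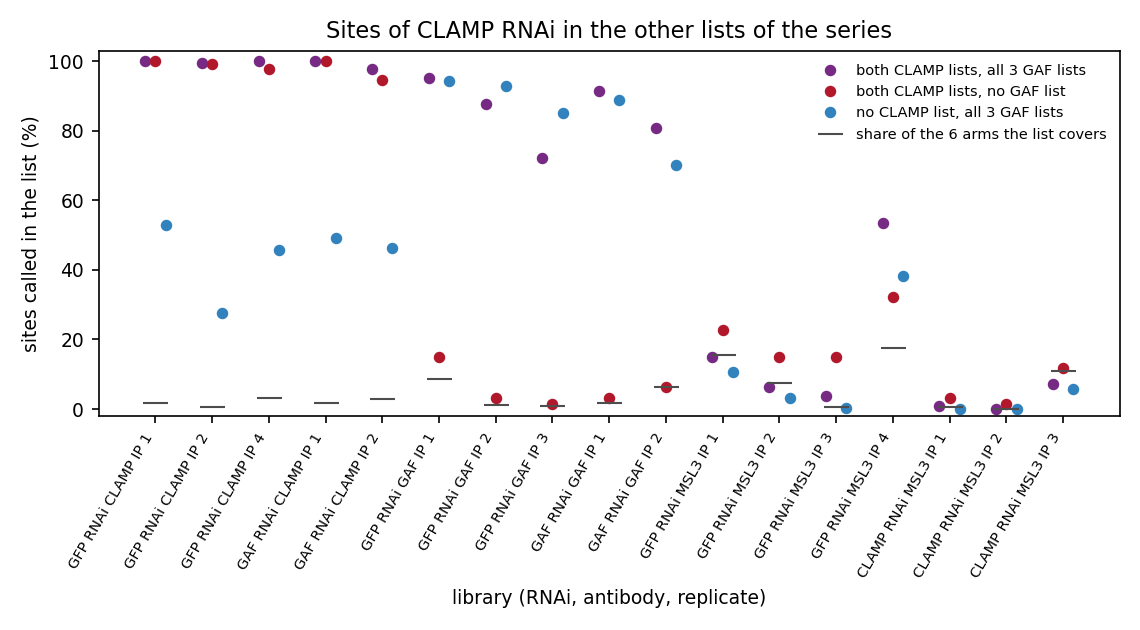
Percentage of 3 classes of CLAMP RNAi sites called in other CLAMP, GAF or MSL3 lists (234 sites of both factors, 127 of CLAMP without GAF, 2163 of GAF without CLAMP), with the share of the arms each list covers as a dash. The MSL3 lists of GAF RNAi are not shown. Sites of both classes with CLAMP reach 97.6% to 100% in the control CLAMP lists, and CLAMP sites without GAF stay at 1.57% to 15.0% in the control GAF lists.

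On X, more of the remaining CLAMP sites without GAF than of those with GAF overlapped MSL3 regions in 3 of the 4 control MSL3 libraries. A site counts as covered if it shares at least 1 bp with an MSL3 region, and this difference was not tested. Over all arms, the sites without GAF had a median width of 302 bp and those with GAF 806.5 bp. In control MSL3 replicates 1, 2 and 3, regions covered 22, 18 and 19 of the 31 X sites without GAF (71.0%, 58.1% and 61.3%). They covered 17, 15 and 9 of the 64 X sites with GAF (26.6%, 23.4% and 14.1%). All 824 X sites of the 5 lists were covered to 22.1%, 13.8% and 9.47%. Control MSL3 replicate 4 went the other way, with 5 of 31 (16.1%) and 25 of 64 (39.1%), against 24.8% of the 824. The 4 control lists were unlike. Regions of replicates 1, 2, 3 and 4 took up 11.0%, 8.67%, 1.80% and 6.44% of X. On autosomes they took up 16.7%, 7.11%, 0.177% and 20.1%. After CLAMP RNAi, MSL3 replicates 1, 2 and 3 covered 4, 2 and 11 of the 31 sites without GAF, and 2, 0 and 6 of the 64 with GAF (the interval of the 0 reaches 5.60%). The 824 X sites were covered there to 1.7%, 0.728% and 8.86%. Over all arms the control MSL3 libraries 1 to 4 covered 22.8%, 15.0%, 15.0% and 32.3% of the 127 sites and 15.0%, 6.41%, 3.85% and 53.4% of the 234, against 21.5%, 4.81%, 1.97% and 39.5% of all 4926. Those of CLAMP RNAi covered 3.15%, 1.57% and 11.8% of the 127 and 0.855%, 0% and 7.26% of the 234, against 1.2%, 0.203% and 20.1% of all.

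The share of CLAMP peaks at GAF sites was compared with control cells in lists of equal length. Among the 430 strongest peaks, CLAMP RNAi replicates 1 and 2 had 67.9% and 61.6% at the GAF sites of CLAMP RNAi, and GFP RNAi replicates 1, 2 and 4 had 74.0%, 63.0% and 64.9%. For CLAMP RNAi replicate 2 the 430 peaks are its whole list. The groups overlap. The means were 64.8% ± 4.44 (SD, n = 2) and 67.3% ± 5.85 (SD, n = 3), which differed by −2.52 points (exact permutation p 0.8), and by 0.814 points without GFP RNAi replicate 1. With −log10 q limited to 1.3 or more the difference was −13.6 points (exact permutation p 0.6). In whole lists the control shares were 36.3%, 56.7% and 15.8%, so the remaining CLAMP peaks were 27.3 points higher (exact permutation p 0.2, the smallest possible). The control lists are longer, at 5380, 2178 and 10984 peaks, and 16.4% of the 13726 regions merged over them were at these GAF sites.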

How the data were processed

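Peaks were made by the authors with Bowtie (version not given in the sources used here) and MACS2 2.1.1 on build dm3, per the submitters' processing notes. There is 1 list per library, and its options and control are not given in the sources used here. In the deposited lists each peak carries a fold enrichment (a ratio), a −log10 p, a −log10 q and a summit. The lowest −log10 p in each of the 5 lists is 1.30 to 1.32. Fold, p and q depend on the library's depth, which is unknown, so they were used to rank or limit peaks within a list.

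Regions sharing at least 1 bp were merged. Library means were set against each other by exact permutation (two-sided), and p values over the 6 arms were adjusted by Benjamini-Hochberg. Shares have 95% Clopper-Pearson intervals. Equal-length lists hold the peaks of highest −log10 q, with ties by −log10 p and then fold. Other settings tried were minimum −log10 q values of 5 and 1.3, inclusion of regions off the 6 arms, 50% of the shorter region shared, summits within 100 bp, other GAF site definitions, the replicate number as a block, and each library left out. Named sites are those with the best mean percentile of fold per class, 10 per class, of which the text gives 5. The comparison and its measures were chosen with earlier results of these data known. Summit comparisons at the 234 sites and with control libraries were added after these values were seen.

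Overlap counting was checked on simulated peaks against a direct count, with 0 disagreements over 2400 regions. Python 3.11.15, numpy 2.4.6, scipy 1.17.1 and matplotlib 3.10.9 were used. Sequences under the peaks and gene annotation were not used here.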

Additional observations from a re-analysis of the deposited data

Results flagged for a closer look

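GAF replicate 3 of CLAMP RNAi had 129 of 4697 regions outside the 6 arms (2.75%, 95% Clopper-Pearson interval 2.30 to 3.25), data that enter no comparison above. This is above the 0.0374% to 0.361% of the 3 control GAF lists, while GAF replicates 1 and 2 had 2 and 1 such regions. Other lists of the series had higher shares: 3.21% in GAF replicate 1 of GAF RNAi, with the same antibody, 3.92% in CLAMP replicate 1 of GAF RNAi and 2.98% in control CLAMP replicate 1.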

How the results depend on the processing

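Of 121 values recomputed under alternatives, 104 met 1 of these conditions: a tested difference kept its direction, an untested value moved by less than 1 SD, or a count by less than 1.5 times. The difference between X and autosomes is near 0 and had the other sign in 7 of 12 settings, in 6 of them within 1 SD. CLAMP replicate 2 has 0 peaks with −log10 q of 5 or more, so that limit gave no value, and without a CLAMP library there is no count of sites in both. With −log10 q limited to 1.3 or more, the share of CLAMP peaks at GAF sites was 53.6%, that of GAF peaks at CLAMP sites 8.32%, sites called in both CLAMP libraries at GAF sites 31, and the share of CLAMP peaks at GAF sites on X minus autosomes 23.8 points (SD 29.5); the cause was not tested. In equal-length lists the first 3 were 13.4%, 17.5% and 42, since GAF sites are then few, and the fold percentile contrast turned to 3.16. With summits within 100 bp the shares were 51.4% and 10.8% and the summit distance 25.8 bp, which that limit bounds. With GAF sites from any list the share of CLAMP peaks was 67.5%. With the strongest peak at sites called in all 5 lists, an alternative chosen after seeing the data, the summit distance was 50.3 bp. Whole lists turned the comparison with control to 27.3 points.

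Leaving out each library gave 60.3% to 65.4% for CLAMP peaks at GAF sites and 7.31% to 15.1% for GAF peaks at CLAMP sites. The comparison with control ranged from −5.66 to 0.814 points under these omissions. With −log10 q limited to 1.3 or more it was −13.6 points. The labels do not say that replicate numbers pair CLAMP and GAF libraries. With the replicate number as a block over the 2 shared numbers, the differences were −2.49 (log2 peaks), 4.00 points (X), −102.5 bp (width), −15.7 points (fold percentile) and −3.72 points (control), each with an exact sign-flip p of 0.5, the smallest possible. Except for the turns named, no alternative turned a tested difference, but no test of this size could pass 0.05.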
